A study of Mus musculus with 6 samples.

Results

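The 10 genes described here encode lysine methyltransferases of histone H3 that act on lysine 4 (H3K4), lysine 36 (H3K36) and lysine 79 (H3K79). They are Mll1, Wbp7, Mll2, Mll3, Setd1a and Setd1b for H3K4, Setd2, Nsd1 and Ash1l for H3K36, and Dot1l for H3K79, and were found by their symbols in the mouse mm9 gene annotation, where all 10 matched rows among the 18810 genes of the deposited table. Newer names for the Mll genes are Kmt2a (Mll1), Kmt2b (Wbp7), Kmt2d (Mll2) and Kmt2c (Mll3). RNA-seq libraries were made from atrioventricular canal (AVC) regions of C57BL/6 embryos at embryonic day 15.5 (E15.5), 3 lacking the transcription factor Scleraxis (Scx-/-) and 3 wild-type littermates (Scx+/+). By the study's methods each region held the mitral, tricuspid and aortic valves and was dissected with little myocardium, without sorting of cells. The values are RPKM, read counts divided by exon length and library size, so levels of different genes can be set side by side.

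Methyl groups on these 3 lysines are found mainly at genes that are being transcribed and their regulatory regions. H3K4 methylation sits at promoters and enhancers and is written by the Mll and Setd1 enzymes inside large complexes that share core subunits such as Wdr5. Setd2 places the third methyl group on H3K36 along gene bodies behind RNA polymerase II, Nsd1 and Ash1l place up to a pair on the same lysine, and Dot1l methylates H3K79 in transcribed genes and is the only writer in the group without a SET domain. Mll2 is required for heart development in mice, and loss of 1 copy of its human counterpart causes Kabuki syndrome, in which heart malformations are common. Scx is a basic helix-loop-helix factor of tendons and valves, and its loss leaves valves thickened.

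In the Scx-/- AVC regions all 10 genes had log2 fold changes below 0 against Scx+/+, with a median of -0.39 on the log2(RPKM + 0.1) scale beside 0.10 for all 18810 genes. Mll2 alone was called in limma, at the unadjusted p below 0.05 that the study also used, with 0.522 times its Scx+/+ level. This count depended on the test. It was 3 (Mll2, Wbp7 and Dot1l) with the spread of each gene taken by itself, as in the kind of test used by the authors. On the log2 scale that test called 1.18% of all genes lower. The count was 0 with a trend of GC content and exon length removed, beside 362 of 18695 genes called lower. In limma 3.89% of all genes were called in either direction and 1.06% were called lower in Scx-/-. After Benjamini-Hochberg adjustment over all genes 0 of the 10 genes passed, and the smallest adjusted p of any gene in limma was 0.173. In 4 genes, Mll2, Wbp7, Setd1b and Dot1l, the highest Scx-/- value was under the lowest Scx+/+ value, a pattern that 2.31% of all genes had.

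Before the genes are taken one by one, the promoters of Mll1, Mll2 and Dot1l are shown. Mll2 was the called gene, Dot1l the sole H3K79 writer without overlap between genotypes, and Mll1 is shown for its pair of E-boxes, which Setd1a also has (not printed). An E-box, CANNTG, is the short motif that basic helix-loop-helix factors such as Scx bind, and its form is the same on both strands. Each run is the 250 bases before the start of the gene as given by RefSeq (build GRCm38.p6), read 5′ to 3′ on the strand of the gene, with E-boxes in capitals. The positions are exact matches in mm9, chr9:44689373-44689622 (minus strand) for Mll1, chr15:98701637-98701886 (minus strand) for Mll2 and chr10:80217698-80217947 (plus strand) for Dot1l.
Mll1: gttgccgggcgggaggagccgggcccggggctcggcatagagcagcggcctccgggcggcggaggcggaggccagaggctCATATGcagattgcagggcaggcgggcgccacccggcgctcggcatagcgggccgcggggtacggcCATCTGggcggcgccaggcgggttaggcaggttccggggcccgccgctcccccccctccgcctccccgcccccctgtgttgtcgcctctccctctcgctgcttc
Mll2: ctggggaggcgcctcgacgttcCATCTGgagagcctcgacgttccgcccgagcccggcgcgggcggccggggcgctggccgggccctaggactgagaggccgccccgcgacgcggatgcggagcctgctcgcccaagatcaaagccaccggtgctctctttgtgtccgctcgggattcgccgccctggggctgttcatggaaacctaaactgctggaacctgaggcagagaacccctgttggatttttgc
Dot1l: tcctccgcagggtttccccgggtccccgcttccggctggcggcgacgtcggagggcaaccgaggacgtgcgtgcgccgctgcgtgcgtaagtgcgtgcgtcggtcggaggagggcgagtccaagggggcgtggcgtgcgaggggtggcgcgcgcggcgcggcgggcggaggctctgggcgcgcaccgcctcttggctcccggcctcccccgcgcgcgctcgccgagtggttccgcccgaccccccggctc
The Mll1 run held 2 E-boxes, at 170 and 104 bases before the start, and 29 CpG dinucleotides. The Mll2 run held 1 E-box, at 228 bases before the start, and 26 CpG. The Dot1l run held 0 E-boxes and 44 CpG. Promoters of 6 of the 10 genes were matched, and 3 of these 6 held the motif (Mll1, Mll2 and Setd1a), beside 66.2% of 32536 distinct mouse promoters of the same length, whose median CpG count was 6. A match of letters is a description of the sequence and not a binding site. Wbp7, Setd1b, Nsd1 and Ash1l were not matched.

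The writers differed in level far more than the genotypes did. Nsd1 was the most abundant, at 21.1 ± 1.25 RPKM in Scx-/- and 21.7 ± 5.22 RPKM in Scx+/+ (SD, n = 3 each), and Setd1b the least, at 0.378 ± 0.106 and 0.543 ± 0.0403 RPKM. By mean over the 6 libraries the order was Nsd1, Setd2, Ash1l, Mll3, Dot1l, Mll1, Mll2, Setd1a, Wbp7 and Setd1b, from percentile 83.7 to percentile 13.5 of all genes in the table. The 3 H3K36 writers were thus at the top of the order, and Setd1b, Wbp7 and Setd1a, all H3K4 writers, at its bottom. Ash1l was above Mll3 in every library and Mll3 above Dot1l in every library without overlap of their ranges, whereas the ranges of all other neighbours in the order overlapped. Within each library, however, Nsd1 was also above Setd2 and Setd2 above Ash1l. Summed, the 3 H3K36 writers came to 42.6 ± 3.42 RPKM in Scx-/- and 45.6 ± 11.5 RPKM in Scx+/+, with 48.6% from Nsd1. The 6 H3K4 writers came to 6.94 ± 0.591 and 9.89 ± 2.85 RPKM, with 51.5% from Mll3. These sums are of RNA and say nothing of enzyme activity.

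**Figure D1:**
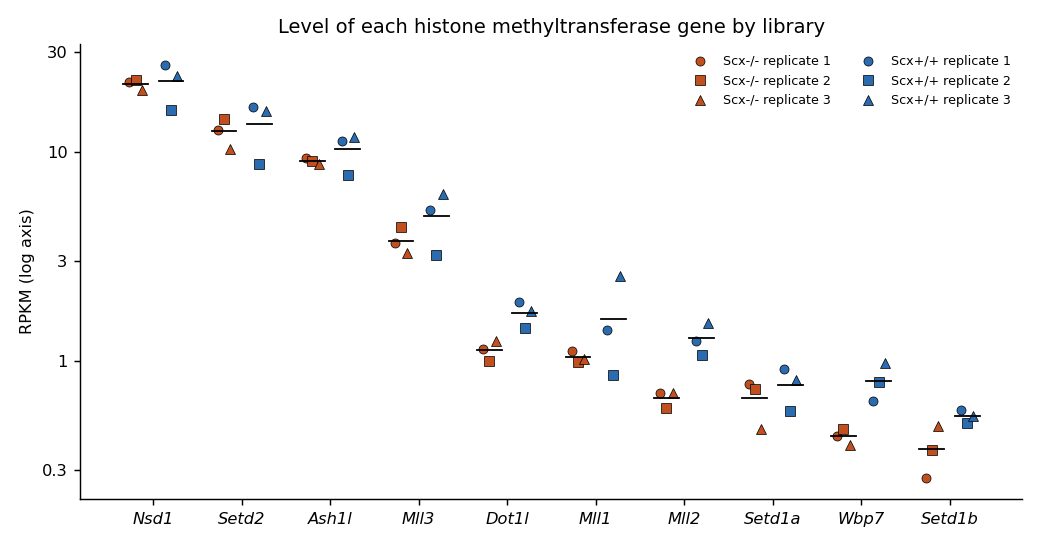
RPKM of the 10 methyltransferase genes on a log axis, 1 point per library (marker shape gives the replicate number), with a bar at the mean of each genotype. The H3K36 writers Nsd1, Setd2 and Ash1l lie above the rest, and all Scx-/- points lie below all Scx+/+ points for Dot1l, Mll2, Wbp7 and Setd1b.

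Some facts of the libraries touch every value that follows. Reads recovered from RPKM and exon length came to 46429966 to 68571039 per library. Scx+/+ replicate 2 stood apart, with the smallest depth, 56.9% of its RPKM sum in its 10 most abundant genes (30.7% to 43.9% in the other libraries) and 2252 values at 0.0949 RPKM, the fill-in used for low genes in the deposited table (1088 to 1465 in the others). Of the 10 genes 0 had a value at the fill-in. Scx itself was at 33.6, 18.6 and 82.9 RPKM in Scx-/- and 29.5, 58.3 and 26.0 RPKM in Scx+/+, a log2 fold change of 0.07 (SE 0.51), so the value of the whole gene does not check the labels. By its methods the study had checked the samples by a lower level of exon 1 of Scx in Scx-/-, a measurement that was not analysed here. Markers of valve mesenchyme were present in every library (sum of 8 genes 435 to 572 RPKM in Scx-/- and 407 to 455 in Scx+/+), with a median log2 fold change of -0.02. Postn and Col3a1, at means of 254 and 125 RPKM, weighed most in that sum. Sox9, Twist1 and Msx1 were at means of 2.1, 2.18 and 0.582 RPKM. Sums of cardiomyocyte markers were high in every library (18304 to 26594 RPKM in Scx-/- and 16173 to 29119 RPKM in Scx+/+), highest in Scx+/+ replicate 2. Markers of 3 further cell types had median log2 fold changes above that of all genes, smooth muscle at 0.38 and erythroid cells at 0.33 with 0 called, and epicardium at 0.27 with 1 of 4 called higher in limma (Aldh1a2, log2 fold change 0.60). The 6 endothelial markers had a median log2 fold change of -0.24 and overlapping sums (102 to 135 RPKM in Scx-/- and 116 to 135 RPKM in Scx+/+). Of 3 melanocyte markers in the table, 2 were called higher in Scx-/- (sum 3.72 to 6.21 against 2.21 to 2.95 RPKM), and the part of any cell type in the results was not tested. In such bulk samples fewer cells that express a gene and less RNA per cell cannot be told apart.

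Mll1 and Wbp7 (Kmt2b) are the pair of H3K4 writers that are kept on chromatin by menin and CpG-binding domains, and Mll1 is known for maintaining Hox expression. Mll1 (ENSMUSG00000002028, chr9:44611438-44689379, minus strand) was at 1.11, 0.989 and 1.02 RPKM in Scx-/- and at 1.4, 0.855 and 2.53 RPKM in Scx+/+. The Scx-/- libraries were nearly equal, while Scx+/+ spanned them, with replicate 2 the lowest and replicate 3 the highest of all 6. All Scx-/- values were therefore within the range of Scx+/+. The log2 fold change was -0.45 (SE 0.41, 95% interval -1.39 to 0.49, adjusted p = 0.967, limma). It moved between -0.80 and -0.07 as single libraries were left out, the former without Scx+/+ replicate 2 and the latter without Scx+/+ replicate 3. Wbp7 (ENSMUSG00000006307, chr7:31353877-31373745, minus strand) was at 0.438, 0.471 and 0.396 RPKM in Scx-/- and at 0.641, 0.790 and 0.979 RPKM in Scx+/+. All Scx-/- values were below all Scx+/+ values, Scx+/+ replicate 2 included. At 0.542 times the Scx+/+ mean its log2 fold change was -0.74 (SE 0.41, 95% interval -1.66 to 0.18). Wbp7 had p = 0.102 and adjusted p = 0.967 in limma, and the exact permutation p was 0.1. The latter is the smallest two-sided p that 3 against 3 libraries allow. In limma Wbp7 thus missed the threshold, and as single libraries were left out it passed only without Scx+/+ replicate 1.

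Mll2 and Mll3 write a single methyl group on H3K4 at enhancers. Mll2 (Kmt2d, ENSMUSG00000048154, chr15:98662100-98701614, minus strand), whose promoter with its 1 E-box is shown above, was at 0.702, 0.597 and 0.699 RPKM in the Scx-/- libraries, 0.666 ± 0.0597 (SD, n = 3). In the Scx+/+ libraries it was at 1.24, 1.06 and 1.52 RPKM, 1.28 ± 0.235 (SD, n = 3). The genotypes did not overlap, and the highest Scx-/- value was well under the lowest Scx+/+ value. Between 727 and 2071 reads per library stood behind these values, over 19805 bases of exon. The log2 fold change was -0.83 (SE 0.35, 95% interval -1.63 to -0.04), with p = 0.0412 and adjusted p = 0.967 in limma, and the exact permutation p was 0.1. Leaving out single libraries gave values from -0.95 to -0.71, and the threshold was passed in 3 of these 6 fits, but not without Scx-/- replicate 2, Scx+/+ replicate 1 or Scx+/+ replicate 3. With a trend of exon length and GC content removed from each library it was -0.56 and no longer called. Mll3 (ENSMUSG00000038056, chr5:24777612-25004601, minus strand), its paralog, was the most abundant H3K4 writer, at 3.64, 4.37 and 3.28 RPKM in Scx-/- and 5.24, 3.19 and 6.28 RPKM in Scx+/+. Scx+/+ replicate 2 was the lowest of all 6 libraries and replicates 1 and 3 the highest. The log2 fold change was -0.33 (SE 0.29, adjusted p = 0.967, limma) over all 6 libraries and -0.61, past the threshold, only without Scx+/+ replicate 2.

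Setd1a and Setd1b are the catalytic subunits of the complexes that carry out most trimethylation of H3K4 at promoters. Setd1b (ENSMUSG00000038384, chr5:123592202-123617444, plus strand) was at 0.274, 0.372 and 0.486 RPKM in Scx-/- and at 0.584, 0.503 and 0.543 RPKM in Scx+/+. The groups did not overlap, but Scx-/- replicate 3 nearly reached Scx+/+ replicate 2. The log2 fold change of -0.45 (SE 0.45, 95% interval -1.47 to 0.57, adjusted p = 0.967, limma) was not larger than its limma SE. That SE pools spread over genes. With the spread of Setd1b taken by itself the SE was 0.19, smaller than the change. Setd1b was called in neither case, and its exact permutation p was 0.1. Setd1a (ENSMUSG00000042308, chr7:134920184-134943636, plus strand) was at 0.776, 0.729 and 0.473 RPKM in Scx-/- and at 0.914, 0.577 and 0.807 RPKM in Scx+/+. The genotypes overlapped, with a log2 fold change of -0.19 (SE 0.41, adjusted p = 0.980, limma). Setd1a is uncertain, because 3523 bases, 51.8% of its annotated exons, are shared on the same strand with Hsd3b7, a steroid dehydrogenase gene at 1.46 ± 0.202 RPKM in Scx-/- and 1.44 ± 0.144 RPKM in Scx+/+ (SD, n = 3 each). None of the other 9 genes shared exon bases with another annotated gene.

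**Figure D2:**
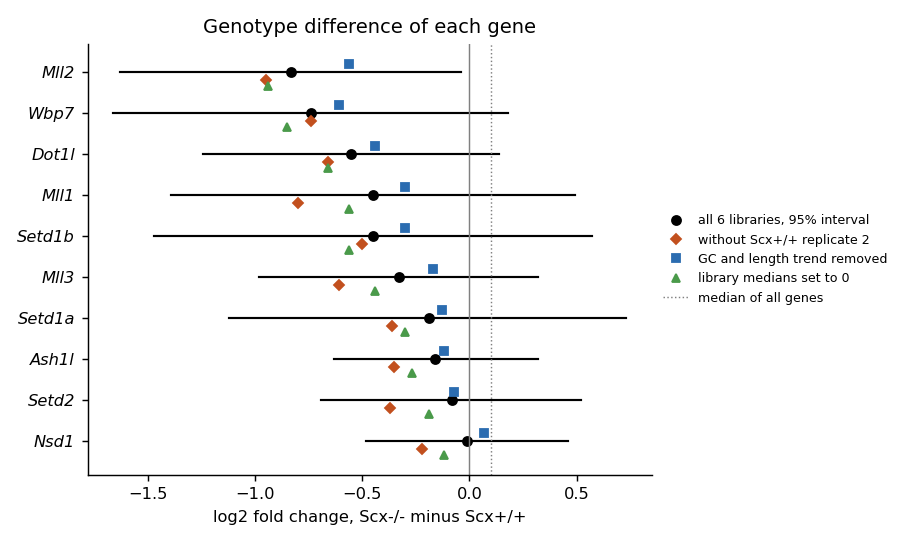
log2 fold change (Scx-/- minus Scx+/+, on log2(RPKM + 0.1)) of each gene in limma with its 95% interval (black), and the same value without Scx+/+ replicate 2, with the GC and length trend removed, and with library medians set to 0. Every black point is below 0 and the interval of Mll2 alone, -1.63 to -0.04, does not reach 0, while Nsd1 turns to 0.07 with the trend removed.

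The 3 H3K36 writers were the most abundant members and had the log2 fold changes nearest to 0. Setd2 (ENSMUSG00000044791, chr9:110435101-110521137, plus strand) was at 12.7, 14.4 and 10.3 RPKM in Scx-/- and at 16.4, 8.71 and 15.7 RPKM in Scx+/+. Its log2 fold change was -0.08 (SE 0.27, 95% interval -0.69 to 0.52, adjusted p = 0.989, limma). Scx+/+ replicate 2 was again the lowest library and the other Scx+/+ libraries the highest. Nsd1 (ENSMUSG00000021488, chr13:55311143-55419686, plus strand), whose human counterpart is mutated in the overgrowth disorder Sotos syndrome, was at 21.5, 22.1 and 19.7 RPKM in Scx-/- and at 26.1, 15.9 and 23.1 RPKM in Scx+/+. Its log2 fold change was -0.01 (SE 0.21, 95% interval -0.48 to 0.46, adjusted p = 0.998, limma). Both signs turned when 1 library was left out, Setd2 to as high as 0.08 and Nsd1 to as high as 0.14. Ash1l (ENSMUSG00000028053, chr3:88769734-88883295, plus strand), the mammalian counterpart of a Drosophila trithorax-group gene, was at 9.33, 8.99 and 8.78 RPKM in Scx-/- and at 11.2, 7.73 and 11.8 RPKM in Scx+/+. The Scx-/- libraries lay between Scx+/+ replicate 2 and the other Scx+/+ libraries, and the log2 fold change was -0.16 (SE 0.21, 95% interval -0.63 to 0.32, adjusted p = 0.967, limma). In the main test the intervals of Setd2 and Ash1l reached the log2 fold change of Dot1l, -0.55, and that of Nsd1 ended narrowly short of it. After quantile normalization Nsd1 was at -0.14 (SE 0.22), so a decrease of that size is not excluded for it.

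Dot1l (ENSMUSG00000061589, chr10:80217951-80258206, plus strand) is the single enzyme known to methylate H3K79, and its loss in mouse cardiomyocytes leads to dilated cardiomyopathy. In Scx-/- it was at 1.14, 0.994 and 1.24 RPKM, and in Scx+/+ at 1.92, 1.44 and 1.73 RPKM. The genotypes did not overlap, and here Scx+/+ replicate 2 was the lowest of its group without reaching Scx-/-. The Scx-/- mean was 0.662 times that of Scx+/+, a log2 fold change of -0.55 (SE 0.30, 95% interval -1.24 to 0.14) with p = 0.104 and adjusted p = 0.967 in limma and an exact permutation p of 0.1. It was steady as single libraries were left out, between -0.66 and -0.46, and passed the threshold in 0 of the 6 fits. With the spread of each gene taken by itself, not pooled over genes, Dot1l was called with Mll2 and Wbp7, beside 1.18% of all genes called lower. With the median of each library set to 0, limma called Mll2 and Dot1l, beside 1.94% of all genes called lower.

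The members fell into classes by the base composition of their transcripts. Mll2, Wbp7, Setd1a, Setd1b and Dot1l have exons of 57.6% to 58.4% GC and Mll1, Mll3, Setd2, Nsd1 and Ash1l of 43.4% to 50.6%. In the GC-rich class 4 of 5 genes did not overlap between genotypes and the median log2 fold change was -0.55, against 0 of 5 and -0.16 in the other class. The classes also differed in level, with a median of 0.713 RPKM in the GC-rich class and 9.65 RPKM in the other. GC content and level thus cannot be told apart in these 10 genes. The split at 55% was made after the values had been seen, and the difference between classes was not tested. In Scx+/+ replicate 2 all 5 genes of the lower-GC class had their lowest value of the 6 libraries. Mll2, Wbp7, Setd1b and Dot1l of the GC-rich class were above all Scx-/- libraries there, which their lack of overlap already implies. Without that library all 10 genes were lower in every Scx-/- library than in both remaining Scx+/+ libraries, and 4 of 10 were so when any other library was left out. The share of all genes with this pattern was 9.81% without Scx+/+ replicate 2 and 4.10% to 6.07% without any other library, so it rose in every case from the 2.31% over all 6 libraries. Without Scx+/+ replicate 2 limma called Mll2 and Mll3, beside 2.49% of all genes called lower.

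**Figure D3:**
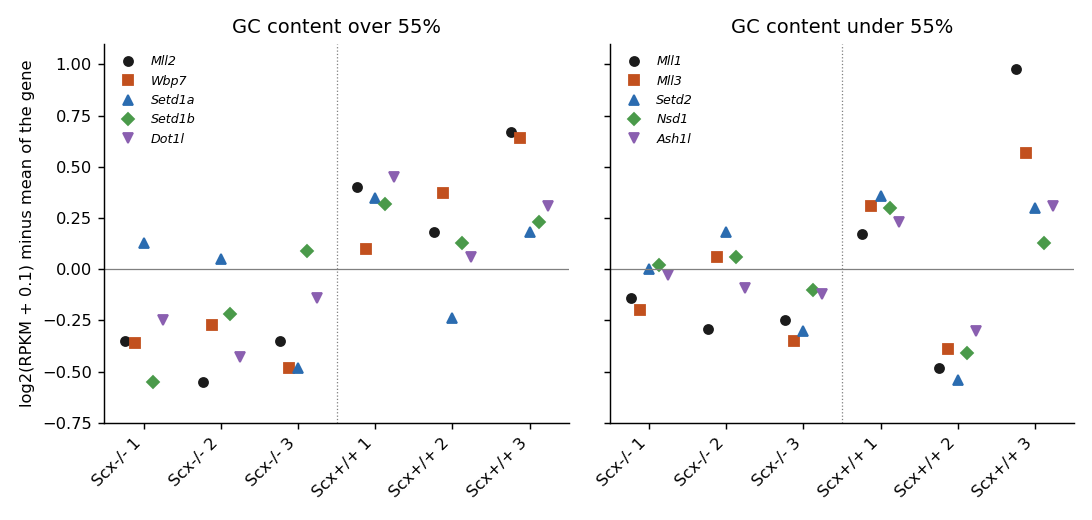
Deviation of each gene in each library from its own mean on the log2(RPKM + 0.1) scale, for the 5 genes with GC content over 55% (left) and the 5 under 55% (right), with 1 marker per gene and the genotypes divided by a dotted line. In Scx+/+ replicate 2 the genes on the right are all at their lowest, whereas on the left only Setd1a is below 0.

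Long and GC-rich transcripts as a class had the same direction. The 10 genes have 6795 to 20296 bases of exon, and 2282 protein-coding genes exceed 6.5 kb, a limit set after the lengths of the members were known. Of these long genes 51.9% had log2 fold changes below 0, with a median of -0.01, beside a median of 0.14 for genes of up to 2 kb. Among the 202 long genes with GC over 55%, a set that holds the 5 GC-rich members, 74.3% were below 0, the median was -0.17, and in 11.9% all Scx-/- values were under all Scx+/+ values. Among the 2080 long genes of lower GC the median was 0.00 and 3.56% did not overlap in that direction. Without Scx+/+ replicate 2 these shares were 40.1% and 28.5%. Relative to their own means the long GC-rich genes had median deviations of 0.17, -0.11 and -0.30 in the Scx-/- libraries and 0.28, -0.20 and 0.27 in the Scx+/+ libraries, where the GC-rich members had -0.35, -0.27 and -0.35 and 0.35, 0.13 and 0.31. With the trend of length and GC removed from every library the median of the 10 genes was -0.24 and that of all genes was 0.01. In that fit 0 of the 10 were called, beside 362 of 18695 genes called lower. The part of transcript length, GC content, level or RNA integrity in the differences was not tested.

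**Figure D4:**
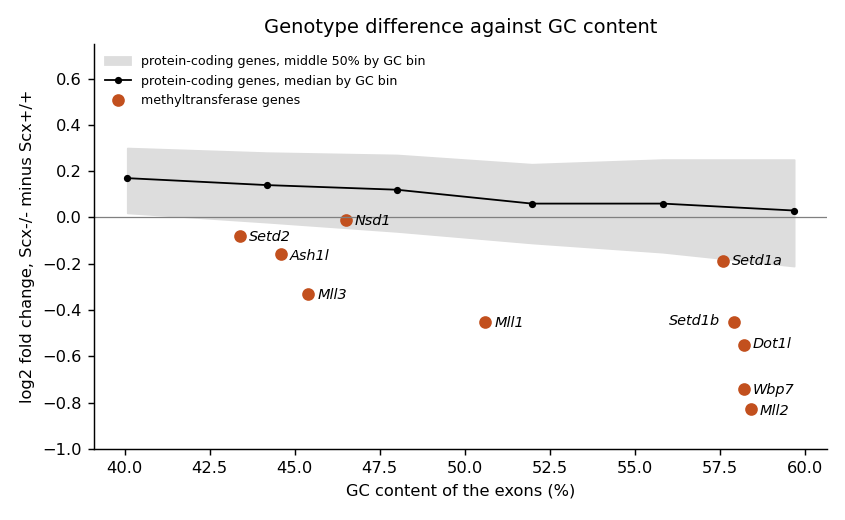
log2 fold change (Scx-/- minus Scx+/+) of the 10 genes against the GC content of their exons (%), over the median (line) and middle 50% (grey) of protein-coding genes in bins of GC content. The medians of the bins go from 0.17 to 0.03, and 9 of the 10 genes, all but Nsd1, are under the 25th percentile of their own bin, Setd2 and Setd1a narrowly.

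Genes that work with these writers had medians nearer to that of all genes. Of 15 partners of the H3K4 complexes 5 were below 0 and 0 were called, with a median of 0.13. They ran from Hcfc1 to Myst1. Hcfc1, a host cell factor that binds Setd1 and Mll1 complexes, was at 3.21 ± 0.794 RPKM in Scx-/- and 4.18 ± 1.70 RPKM in Scx+/+ (log2 fold change -0.31). Myst1, the H4K16 acetyltransferase that acts beside Mll1, was at 7.05 ± 1.17 and 4.81 ± 1.34 RPKM (0.57, adjusted p = 0.967, limma). The unadjusted value of Myst1 in limma was just above the threshold for a call. Of 12 Dot1l partners and elongation factors 4 were below 0 and 0 were called, with a median of 0.06. Aff1, a scaffold of the super elongation complex, was at 1.52 ± 0.0996 and 1.87 ± 0.378 RPKM (log2 fold change -0.27) and the elongation factor Ell2 at 2.36 ± 0.363 and 1.82 ± 0.828 RPKM (0.44).

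Other enzymes for the same residues, their erasers and their readers also had medians near 0. Of 11 further lysine methyltransferases 6 were below 0 and 0 were called, with a median of -0.03. In 1 of them, not named here, all Scx-/- values were under all Scx+/+ values, a pattern that 2.31% of all genes had. Setmar, a methyltransferase fused to a transposase in primates, was at 1.15 ± 0.236 RPKM in Scx-/- and 1.53 ± 0.302 RPKM in Scx+/+ (log2 fold change -0.38), and Smyd3 at 1.55 ± 0.328 and 1.06 ± 0.0878 RPKM (0.49). Of 11 demethylases 6 were below 0 and 0 were called, with a median of -0.01, from Kdm4c at 6.23 ± 0.463 and 7.41 ± 1.29 RPKM (-0.23) to Kdm8 at 1.15 ± 0.470 and 1.00 ± 0.383 RPKM (0.19). Of 15 readers 5 were below 0 and 0 were called, with a median of 0.05. Phf2, which binds H3K4 trimethylation through a PHD finger, was the lowest of these at 0.916, 1.16 and 1.08 RPKM in Scx-/- and 2.03, 1.54 and 1.63 RPKM in Scx+/+. Its groups did not overlap, and its log2 fold change of -0.67 was not called (adjusted p = 0.967, limma). The unadjusted value of Phf2 in limma was just above the threshold for a call. Ing4, another PHD-finger reader, was at 11.5 ± 3.18 and 8.32 ± 2.31 RPKM (0.46).

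Of 18 genes listed as known targets of Mll1 or Dot1l, 4 were analysed and 14, all Hox genes, were not analysed here. The 4 had log2 fold changes above 0 with a median of 0.08 and 0 were called. Meis1, a homeobox cofactor downstream of Mll1 in blood cells, was at 6.80 ± 1.67 RPKM in Scx-/- and 5.68 ± 1.85 RPKM in Scx+/+ (0.28), and Meis2 at 4.59 ± 1.21 and 4.71 ± 1.83 RPKM (0.02). Thus 0 of the genes in the 6 lists passed the threshold in limma. With the spread of each gene taken by itself 1 H3K4 partner (Wdr82, log2 fold change above 0) and 1 reader (Phf2) were called, names given after their values were seen.

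**Figure D5:**
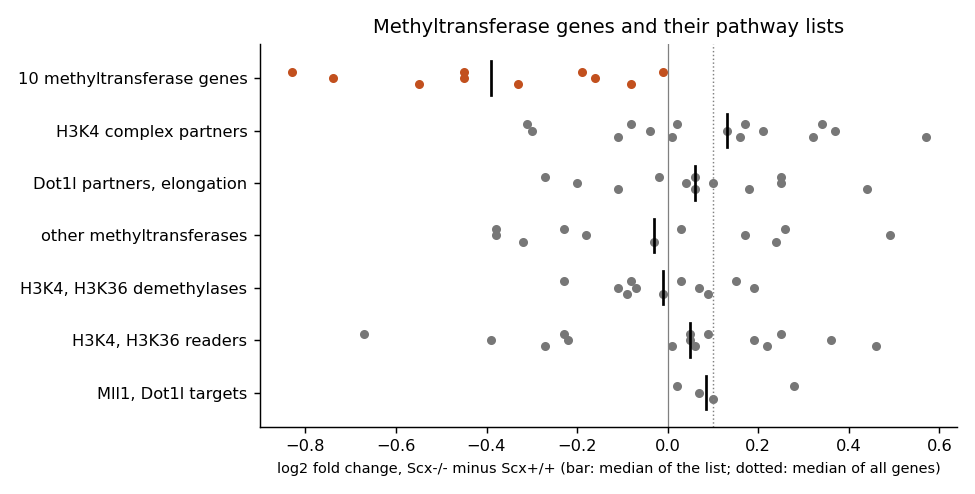
log2 fold change (Scx-/- minus Scx+/+) of the 10 methyltransferase genes (orange) and of the genes in 6 lists of partners, related enzymes, erasers, readers and targets (grey), 1 point per gene, with a bar at the median of each row and a dotted line at the median of all genes. All orange points are below 0 with a median of -0.39, while the medians of the lists lie between -0.03 and 0.13.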

How the data were processed

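RNA-seq was analysed from 3 Scx-/- and 3 Scx+/+ AVC regions at E15.5. The authors aligned reads to mm9 with TopHat 1.4.1, counted reads in Ensembl exons with easyRNASeq and deposited RPKM for 18810 genes. By their methods they kept genes with enough reads in at least 1 sample and replaced low values, which removes low genes and compresses their fold changes. Genotypes and replicate numbers were taken from the labels, which name 1 embryo region per sample and no litter, so p-values measure the spread between these samples.

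Symbols, exon length and GC content came from the mm9 GENCODE annotation (18695 of 18810 genes matched). Reads recovered from RPKM and exon length were whole within 0.1 read for over 98% of values under 1000 reads. They served only to give depth and the reads behind Mll2. No count test was run on values normalized for length. The main test was limma 3.58.1 (R 4.3.3) on log2(RPKM + 0.1) with an intensity trend, no covariate, all 6 samples with p adjusted by Benjamini-Hochberg across the 18810 genes. Calls were made at an unadjusted p below 0.05, the threshold of the study. Fold changes on this scale understate changes of low genes. Exact permutation tests were two-sided on RPKM. The steps were tested on simulated data. Tables and plots were made in Python 3.11.15 (scipy 1.17.1, pandas 2.3.3, numpy 2.4.6, matplotlib 3.10.9).

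The members and all gene lists were chosen with earlier results of these data known. Named were Scx, the 10 members, the highest and lowest gene of each list in the absence of called genes, and the 5 genes most like the member mean and like Dot1l. Hsd3b7 was named for its overlap with Setd1a. Alternatives were pseudocounts of 0.01 and 1, a minimum mean of 1 RPKM (13827 genes), no trend, one-way ANOVA (the spread of each gene taken by itself), quantile normalization, library medians set to 0, removal of a spline trend (5 degrees of freedom each) on GC and length, a replicate block with and without that removal, and each library left out. The count of members without overlap as libraries were left out, the GC split and the length limit were added after seeing the data.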

Additional observations from a re-analysis of the deposited data

How the results depend on the processing

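The log2 fold changes of 8 of the 10 genes stayed below 0 under every alternative run, though Setd1a came to -0.003 without Scx-/- replicate 3. Nsd1 turned to 0.07 with the GC and length trend removed, with or without the block, and ranged from -0.22 to 0.14 as libraries were left out, above 0 without Scx-/- replicate 3 (0.04), Scx+/+ replicate 1 (0.14) or Scx+/+ replicate 3 (0.05). Setd2 ranged from -0.37 to 0.08, above 0 without the same libraries (0.05, 0.08 and 0.05). Of the 10 genes 3 were called without a trend and by one-way ANOVA on log2 or on RPKM, and 2 with library medians set to 0. None were called with the GC and length trend removed, beside 362 of 18695 genes called lower, and 0 to 2 were called as libraries were left out. With a mean of at least 1 RPKM none of the 6 tested were called, beside 132 of 13827 genes called lower. Mll2 and Wbp7, at means of 0.971 and 0.619 RPKM, were not tested there, so that count says nothing of the Mll2 call. Over all 18810 genes 238 were called lower without a trend, 222 by ANOVA on log2 and 202 by ANOVA on RPKM. With library medians set to 0 the number was 365, and as libraries were left out it was 153 to 468. Members lower without overlap numbered 4 to 10, as the share of all genes with that pattern went from 4.10% to 9.81%. The median of the members ranged from -0.55 to -0.14, the extremes without Scx+/+ replicate 2 and Scx+/+ replicate 3. The 731 calls over all genes became 539 to 1549 as libraries were left out, the most without Scx+/+ replicate 2. Of these calls 27.4% were lower in Scx-/-, but 56.5% with library medians set to 0, 50.1% after quantile normalization and 54.8% with the trend removed. The median of all genes was 0.10 in the main test and 0.00, 0.02 and 0.01 under these alternatives. In the 6 lists 1 gene (Phf2) was called without a trend or with the GC and length trend removed, 2 (Phf2 and Wdr82) by either ANOVA, 2 (Phf2 and Setd7) after quantile normalization or with medians set to 0, and 0 to 6 as libraries were left out, the most without Scx+/+ replicate 2. The causes of these changes were not tested.

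Same-numbered libraries did not deviate together from their genotype means (correlations 0.092, -0.220 and -0.188 over 13827 genes). Libraries of unlike number had correlations from -0.260 to 0.320. With 3 libraries per genotype and no litter in the labels, these values cannot show whether the embryos were paired. With the number as a block 573 genes were called, 0 of the 10 members (Mll2 no longer called) and 1 list gene (Myst1), and with the block and the trend removal 485 genes and 0 members.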

Other observations

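Among 13762 other genes averaging 1 RPKM or more, those whose pattern over the 6 libraries was most like the mean of the members were Cnot6l (Pearson r = 0.997), a subunit of the CCR4-NOT deadenylase, Ptprg (0.996), a receptor tyrosine phosphatase, Gm608 (0.993), the phosphatase gene Phlpp1 (0.989) and SNORA25 (0.985), annotated as a small nucleolar RNA. Mean levels in Scx-/- and Scx+/+ were 6.09 and 7.92 RPKM for Cnot6l, 2.15 and 2.80 RPKM for Ptprg, 1.42 and 2.32 RPKM for Gm608 and 1.61 and 2.67 RPKM for Phlpp1. SNORA25 was at 0.108 and 2.82 RPKM with 2 of its 3 Scx-/- values at the fill-in of 0.0949 RPKM, so it reached the 1 RPKM minimum through Scx+/+ alone and its correlation is that of a floor against a high group. Most like Dot1l were Gm15659 (0.981; 0.37 and 1.68 RPKM), Ahnak (0.979), which encodes a giant scaffold protein and was at 79.1 and 98.2 RPKM, Mir700 (0.977; 0.205 and 2.09 RPKM), Myo18b (0.976), an unconventional myosin of striated muscle at 11 and 14.4 RPKM, and Gm17329 (0.955; 1.76 and 10.3 RPKM). Mir700 also had 2 of 3 Scx-/- values at the fill-in, and it and Gm15659 averaged over 1 RPKM only through Scx+/+. These are the highest correlations of many over 6 points that share library depth and composition, and are given as a description.

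The SD as a share of the mean was smaller in Scx-/- than in Scx+/+ for 8 of the 10 genes, but not for Setd1a (24.8% and 22.5%) or Setd1b (28.1% and 7.42%). The SD of Nsd1 was 1.25 RPKM in Scx-/- and 5.22 RPKM in Scx+/+, that of Ash1l 0.273 and 2.22 RPKM, and that of Mll1 0.0605 and 0.853 RPKM, in each case with Scx+/+ replicate 2 the lowest Scx+/+ library. The difference in spread was not tested.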
